A study of Mus musculus with 4 samples.

Results

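Runx1, Runx2 and Runx3 encode the DNA-binding RUNX transcription factors, and Cbfb encodes their shared partner. They were examined through the open chromatin at their 4 genes. ATAC-seq peaks inside each gene record of mm10 or within 50 kb on either side were merged across libraries wherever they shared at least 1 base. This gave 139 regions out of 93679 in the whole series, of which 42 lay at Runx1, 47 at Runx2, 37 at Runx3 and 13 at Cbfb.

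RUNX proteins bind DNA through the Runt domain, and CBFβ, which does not bind DNA itself, raises their affinity and protects them from degradation. Each Runx gene is transcribed from a distal promoter (P1) and a proximal promoter (P2), whose proteins differ at the amino terminus. In T cells, Runx1 acts in thymocyte development and silences Cd4 in immature cells, Runx3 maintains that silencing in CD8+ cells and favours Ifng over Il4 in Th1 cells, and Runx1 with CBFβ sustains Foxp3 in Treg cells. Runx2 is best known as the regulator of osteoblasts.

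ATAC-seq marks open chromatin by the insertion of sequencing adapters by a transposase. Naive CD4+ T cells with the surface phenotype CD62L high, CD44 low and CD25- were taken from the spleens of 7-week-old male wild-type C57BL/6 mice. For 48 h they were stimulated by antibodies to CD3, at 5 µg/ml, and to CD28, at 1 µg/ml. All cultures received 5 ng/ml of TGF-β1 together with IL-2 at 10 ng/ml, the cytokines that polarize the cells towards induced Treg cells (iTreg). There were 2 libraries of cells that had no IL-4, called iTreg+PBS here although the labels say only that IL-4 was absent, and 2 of cells exposed to IL-4 at 15 ng/ml, named iTreg+IL-4. Each library came from a pool of mice, and no sort of Foxp3+ cells after the culture is given in the sources used here, so that fewer open cells and less openness per cell cannot be told apart.

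The lists held 77064 and 56645 peaks without IL-4 and 78670 and 67743 peaks with it for replicates 1 and 2. They hold no read counts, so the depth is unknown and a missing peak means only that no enrichment passed the peak caller's threshold. Every peak is therefore placed within its own list by its rank, the percent of peaks in that list with a higher −log10 q, so that a small rank is near the top. The 8 T cell markers and the 5 markers of activated or regulatory T cells all had a promoter peak in all 4 libraries, as did 58.8% of all coding genes taken over all their start sites. None of the 4 myeloid markers and neither NK cell marker had one in all 4. Of the B cell genes, Cd79a had none in any library, Ms4a1 had one in 3 libraries and Pax5 in all 4. Of the other markers, 1 of 2 for CD8 T cells and 2 of 3 for erythroid cells had one in all 4 libraries.

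The 7 promoters of the members differed in sequence and in openness, so the 150 bases before the first annotated start site are shown for 6 of them, on the coding strand, from RefSeq GRCm38.p6. Capitals mark the core of the RUNX motif, TGTGGT on either strand. P1 and P2 were told apart by the start of the annotated protein. The Runx1 pair lies on the reverse strand at chr16:92826150-92826299 and chr16:92697329-92697478. Runx2 P1 lies on the reverse strand at chr17:44814798-44814947. The Runx3 pair lies on the forward strand at chr4:135120502-135120651 and chr4:135152346-135152495, and the Cbfb promoter on the forward strand at chr8:105170524-105170673.
Runx1 P1: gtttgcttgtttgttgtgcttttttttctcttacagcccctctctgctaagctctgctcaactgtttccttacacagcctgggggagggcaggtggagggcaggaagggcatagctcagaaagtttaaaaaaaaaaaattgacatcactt
Runx1 P2: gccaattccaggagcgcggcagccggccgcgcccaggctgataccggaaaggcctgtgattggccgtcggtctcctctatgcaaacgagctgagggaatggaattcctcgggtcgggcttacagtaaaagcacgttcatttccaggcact
Runx2 P1: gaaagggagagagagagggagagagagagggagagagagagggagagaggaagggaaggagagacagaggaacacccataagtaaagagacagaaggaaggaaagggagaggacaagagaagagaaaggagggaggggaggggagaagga
Runx3 P1: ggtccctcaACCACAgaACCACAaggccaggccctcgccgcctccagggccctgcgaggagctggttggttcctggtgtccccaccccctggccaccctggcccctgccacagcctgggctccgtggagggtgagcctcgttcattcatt
Runx3 P2: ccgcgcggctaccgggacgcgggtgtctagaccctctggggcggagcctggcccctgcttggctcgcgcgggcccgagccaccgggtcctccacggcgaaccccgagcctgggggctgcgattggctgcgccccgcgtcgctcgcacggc
Cbfb promoter: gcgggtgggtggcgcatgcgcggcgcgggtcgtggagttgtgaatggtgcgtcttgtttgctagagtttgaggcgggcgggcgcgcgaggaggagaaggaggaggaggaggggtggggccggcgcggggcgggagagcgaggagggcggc

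In these stretches P1 held fewer CpG dinucleotides than P2 at Runx1 (0 and 12) and at Runx3 (5 and 22), while Runx2 P1 had 0 and the Cbfb promoter had 19. The RUNX core occurred in 1 of the 6 stretches, that of Runx3 P1, where it stood as a pair separated by 2 bases. Among all 32526 coding promoters, 8.47% held the core in the same stretch. A match of letters is a description of the sequence and does not show that a protein was bound there.

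A peak within 1 kb of a start site was found in all 4 libraries at 6 of the 7 promoters, beside 44.0% of all coding promoters. Every promoter but Runx2 P1 was open with and without IL-4, and these 6 promoters were also called in all 4 libraries with windows of 0.5 kb or 2 kb and in the upper 50% of each list. Runx2 P1 had no peak in any of the 4 libraries, as did 49.2% of all coding promoters.

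Runx3 P1 had the highest-ranked promoter peak of the family in every library. Its rank was 1.82% and 5.98% without IL-4 and 1.63% and 4.59% with it, and the conditions overlapped. The peak spanned 705 to 850 bases and the centre of its merged region lay at -0.32 kb from the start site, over an exon of the noncoding gene Gm16225. Runx3 P2, 31.8 kb downstream, ranked at 20.4% and 25.2% without IL-4 and at 22.8% and 23.5% with IL-4. P1 thus stood nearer the top than P2 in 4 of 4 libraries, by −log10 q and by height alike, a comparison made within each list. The values of P2 with IL-4 lay between those without it. When regions were ranked only among those called in all 4 libraries, or in lists of equal length, both IL-4 libraries stood farther from the top than both PBS libraries at Runx3 P2.

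Runx1 showed a peak at both promoters in every library. P1 ranked at 21.5% and 23.6% without IL-4 and at 20.2% and 19.4% with IL-4. Both IL-4 libraries were nearer the top than both PBS libraries, a gap that was lost when regions were ranked only among those called in all 4 libraries or in lists of equal length. P2 ranked at 14.0% and 20.3% without IL-4 and at 12.3% and 18.5% with IL-4, and the conditions overlapped. P2 was ahead of P1 in 4 of 4 libraries by −log10 q, but by height P1 was ahead in replicate 2 of both conditions, so that their order depended on the measure. The P2 peak was the widest of the family, at 2276 to 2315 bases, against 1316 to 1606 bases at P1.

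Runx2 was open at its proximal promoter alone. P2 ranked at 29.5% and 36.6% without IL-4 and at 26.6% and 28.0% with IL-4, the lowest place of the 6 open promoters in every library. Both IL-4 libraries were nearer the top than both PBS libraries, but the conditions overlapped when peaks were ranked by height. They also overlapped when regions were ranked only among those called in all 4 libraries, and in lists of equal length. Around P1, the nearest region upstream had its centre at -12.6 kb and was called in iTreg+PBS replicate 1 only, at a rank of 90.4%. The nearest one downstream, 22.8 kb away, was called in 3 libraries at ranks from 80.3% to 98.7%. A distal promoter without any peak beside another promoter open in all 4 libraries was found in 518 of the 7388 genes with more than 1 coding promoter, or 7.01%.

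Cbfb had a single promoter, and it was among the most open of the family. Its peak ranked at 3.87% and 7.88% without IL-4 and at 5.43% and 4.62% with IL-4, so that the conditions overlapped. It stood behind Runx3 P1 in 4 of 4 libraries, though nearly level with it in iTreg+IL-4 replicate 2 (4.59% and 4.62%), and ahead of the 4 other open promoters in each.

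**Figure D1:**
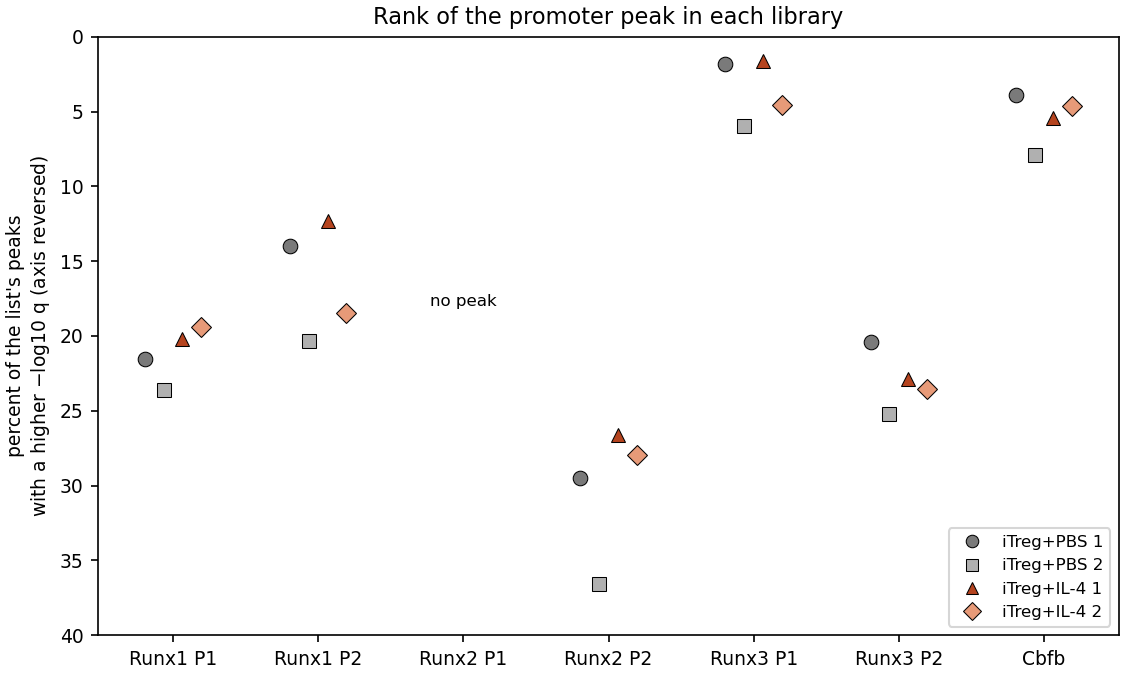
Rank of the peak at each of the 7 promoters (vertical axis, percent of the peaks in the same list with a higher −log10 q, reversed so that the top of the list is up) in the 4 libraries, 1 point for each library. Runx3 P1 and Cbfb stayed within the upper 7.88% of every list, Runx2 P1 had no peak, and the conditions did not overlap at Runx1 P1 and Runx2 P2. At both of these the conditions overlapped in lists of equal length.

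For the 6 open promoters, the coding genes whose promoter regions were nearest in rank over the 4 libraries were also listed, as a description with no test. They were Glod4 and Mrm3, which share a promoter region, for Runx1 P1 (a distance of 0.89 percentage points), Phyh and Oasl2 for Runx1 P2 (0.95 and 1.46), and Sec13 and Cxxc5 for Runx2 P2 (0.59 and 1.56). Ptpn22, a phosphatase that restrains T cell receptor signalling, and Mccc2 were nearest to Runx3 P1 (0.68 and 0.80). Chd2 and Akr1b10 were nearest to Runx3 P2 (0.77 and 1.28), and Epn1 and Ap2a2 to Cbfb (0.62 and 0.72).

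Over the 4 loci, 74 of the 139 regions (53.2%) were called in all 4 libraries, beside 51.0% of the 93679 regions of the series. The count was 20 at Runx1, 22 at Runx2, 23 at Runx3 and 9 at Cbfb. The members' shared regions had a median rank of 26.8% and 42.0% without IL-4 and of 27.3% and 35.6% with IL-4, where the medians of all 47767 shared regions were 31.3%, 42.5%, 30.7% and 35.5%. By position, shared regions made up 6 of the 8 regions at members' promoters, 41 of the 77 in gene bodies, 12 of the 23 upstream, 10 of the 26 downstream and 5 of the 5 at coding start sites of other genes. The shares of all regions at such positions are not given here, so these counts cannot be read as particular to the members. Between P1 and P2 lay 11 shared regions of Runx1 in 128.8 kb, 3 of Runx2 in 78.1 kb and 3 of Runx3 in 31.8 kb. Those of Runx2 included the start site of another gene, Supt3.

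Runx3 was the locus most densely covered by peaks in every library. Peaks covered 10.1% and 7.10% of its 157 kb without IL-4 and 10.7% and 9.18% with it. At Runx1 they covered 5.78%, 4.20%, 6.21% and 5.29% of 325 kb in the same order, and at Runx2 5.27%, 2.84%, 4.81% and 3.65% of 419 kb. At Cbfb they covered 6.19%, 4.88%, 6.37% and 5.83% of 147 kb. Over the whole genome the cover was 1.07% to 1.54%.

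**Figure D2:**
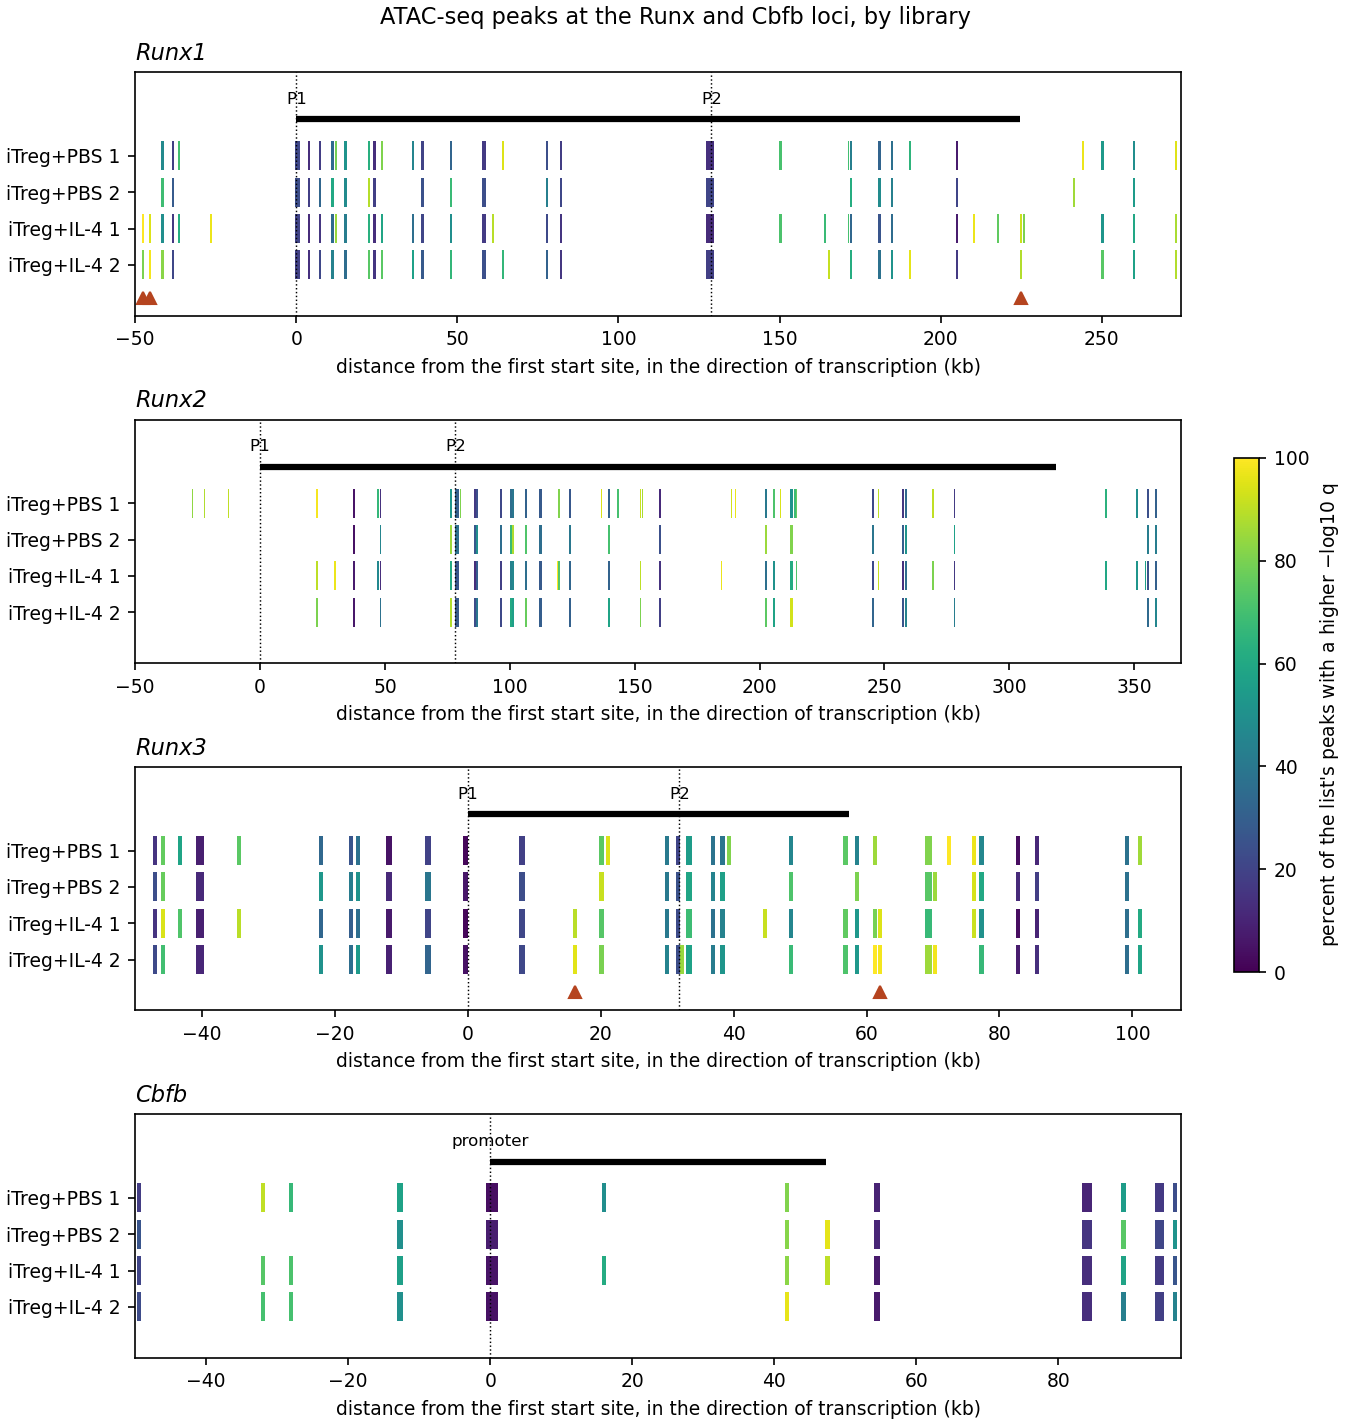
Merged regions of the 4 loci against distance from the first start site in the direction of transcription (kb), 1 row for each library. A box is drawn where a library had a peak and coloured by its rank, the black bar is the gene, dotted lines are the promoters and triangles mark the 5 regions called in both IL-4 libraries only. Most boxes stand in all 4 rows, Runx2 P1 has none, and the triangles stand at yellow to green boxes near the bottom of the lists.

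The best-ranked shared regions away from promoters are described next. At Runx1, the first was an intronic region 24.3 kb downstream of P1 (chr16:92801510-92802206), at 13.1% and 18.4% without IL-4 and 13.3% and 15.5% with it. The second, 4.05 kb downstream of P1 (chr16:92821749-92822455), ranked at 13.0%, 18.7%, 12.4% and 14.0% in the same order, and P2 was the third. The conditions overlapped at each of the 3.

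At Runx2, the best-ranked region was not its own promoter but the start site of Supt3, a subunit of the SAGA coactivator complex, which lies inside the Runx2 gene 37.6 kb downstream of P1 (chr17:44776673-44777774). It ranked at 5.38% and 4.31% without IL-4 and at 7.15% and 6.56% with IL-4, so that both IL-4 libraries stood farther from the top. Next came intronic regions 160.1 kb (chr17:44654393-44655097) and 85.9 kb (chr17:44728389-44729308) downstream of P1. The former ranked at 12.0% and 24.6% without IL-4 and 14.9% and 18.8% with it, the latter at 17.0%, 27.0%, 13.1% and 22.8%, and the conditions overlapped at both.

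At Runx3, P1 was followed by intergenic regions 40.3 kb (chr4:135079826-135080944) and 11.8 kb (chr4:135108414-135109324) upstream. The first ranked at 8.46% and 11.3% without IL-4 and 8.78% and 10.7% with it. The second ranked at 5.04% and 11.6% without IL-4 and 6.79% and 9.34% with it. Both overlapped between conditions, and both stood nearer the top than Runx3 P2 in 4 of 4 libraries. At Cbfb, the regions next to its promoter in rank were the start sites of the neighbours D230025D16Rik and B3gnt9, described below for the former and at 10.5%, 15.6%, 13.1% and 13.3% for the latter, whose conditions overlapped.

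With IL-4, 5 of the 139 regions (3.60%) were called in both libraries and in neither library without it, beside 2.60% of all regions. The reverse pattern was found at 0 regions, beside 0.699%. Of the 5 regions, 3 were at Runx1, 2 at Runx3 and none at Runx2 or Cbfb. All 5 were weak. At Runx1, a region just beyond the end of the gene (chr16:92600917-92601379) ranked at 92.6% and 88.5% in the IL-4 libraries. The other two lay upstream of P1, in an intron of the noncoding gene Gm49723, 45.3 kb (chr16:92871330-92871628) and 47.5 kb (chr16:92873560-92873796) away, at 94.9% and 98.3% and at 99.7% and 80.3%. At Runx3, an intronic region 16.2 kb downstream of P1 (chr4:135136714-135136962) ranked at 89.5% and 95.7%, and an intergenic one 62.0 kb downstream (chr4:135182481-135182806) at 94.6% and 98.3%.

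Each of these 10 peaks had a rank of 80.3% or more, a −log10 q of 1.79 to 7.07 and a height of 14 to 35 overlapping fragments. None of the 5 regions remained in the upper 50% of the lists, and none was called only with IL-4 in lists cut to equal length. Each had a peak too low in its list to pass either cut, so both outcomes were fixed by the ranks and test nothing further. In the lists of equal length 2 other regions were called only with IL-4. They were an intronic one of Runx1 26.7 kb downstream of P1 and one 101.1 kb downstream of Runx3 P1. Both had a weak peak in iTreg+PBS replicate 1 in the full list (ranks of 80.7% and 85.6%). The count of 5 rose to 17 without iTreg+PBS replicate 1 (13.7% of the members' regions, beside 13.6% of all regions) and to 16 without iTreg+IL-4 replicate 2 (11.7%, beside 11.1%). The count of 0 rose to 15 without iTreg+PBS replicate 2 (10.9%, beside 8.19%). In each of these the share of all regions rose as well. The same pattern asked of fewer libraries is a looser rule, so these counts could not fall. With 2 libraries in a condition, no permutation test of a single region can give a p below 0.333.

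For 2 of these 5 regions the centre holds a motif of interest, and 160 bases around it are shown on the forward strand of GRCm38.p6 with every match in capitals. The RUNX core was searched on both strands together with the AP-1 motif TGANTCA, the GATA motif AGATAA and the STAT6 type TTCNNNNGAA, in which N is any base. The first lies at chr16:92871400-92871559, upstream of Runx1, and the second at chr4:135136759-135136918, in the first intron of Runx3 P1 transcripts.
Runx1 upstream, IL-4 only: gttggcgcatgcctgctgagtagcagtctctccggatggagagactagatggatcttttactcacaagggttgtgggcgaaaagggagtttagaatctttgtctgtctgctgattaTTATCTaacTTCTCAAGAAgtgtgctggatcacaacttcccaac
Runx3 intron, IL-4 only: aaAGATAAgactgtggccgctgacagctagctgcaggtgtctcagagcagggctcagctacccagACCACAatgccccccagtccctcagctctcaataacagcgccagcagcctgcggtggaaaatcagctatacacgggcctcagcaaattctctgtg

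In the Runx1 sequence a GATA match and a STAT6-type match lie 3 bases apart. STAT6 is the factor that the IL-4 receptor activates and GATA3 is the factor of Th2 cells that acts with it. In the Runx3 sequence the matches are to GATA and to the RUNX core. Over all 5 regions, 1 held the STAT6 type and 2 held the GATA motif in 200 bases, where 13.1% and 13.6% of the 2435 regions of the series called only with IL-4 held them, and 5.27% and 7.14% of the regions called in all 4 libraries.

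Among the 74 shared regions, 6 (8.11%) ranked nearer the top in both IL-4 libraries than in both PBS libraries, beside 19.7% of all shared regions, and 3 (4.05%) ranked farther from it, beside 5.18%. The conditions overlapped at the others. Across all 47767 shared regions the rank with IL-4 minus that without it had a median of -2.05 percentage points. A rank is a percent of its own list, so this median depends on the lengths of the lists, which differed. The median was -1.73 over the members, -2.73 at Runx1, -2.99 at Runx2, -0.79 at Runx3 and -0.85 at Cbfb. Ranked only among shared regions, the split of 6 against 3 became 3 against 14, and that of all regions went from 9423 against 2474 to 6848 against 6075. These 3 and 14 were 4.05% and 18.9% of the 74, beside 14.3% and 12.7% of all shared regions. In lists of equal length the split was 3 against 13 (4.41% and 19.1% of 68 regions, beside 14.0% and 12.5% of 42652). When 1 library was left out, both counts rose, and so did the shares of all shared regions. Leaving out a library only loosens the rule, so these counts could not fall. Without iTreg+PBS replicate 1, 55 member regions (74.3%, beside 70.8% of all shared regions) ranked nearer the top and 5 (6.76%, beside 9.93%) farther from it. Without iTreg+PBS replicate 2 they were 14 (16.3%, beside 24.3%) and 41 (47.7%, beside 36.0%). Without iTreg+IL-4 replicate 1 they were 8 (10.8%, beside 30.2%) and 16 (21.6%, beside 17.9%), and without iTreg+IL-4 replicate 2 they were 31 (41.3%, beside 48.4%) and 5 (6.67%, beside 12.5%).

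**Figure D3:**
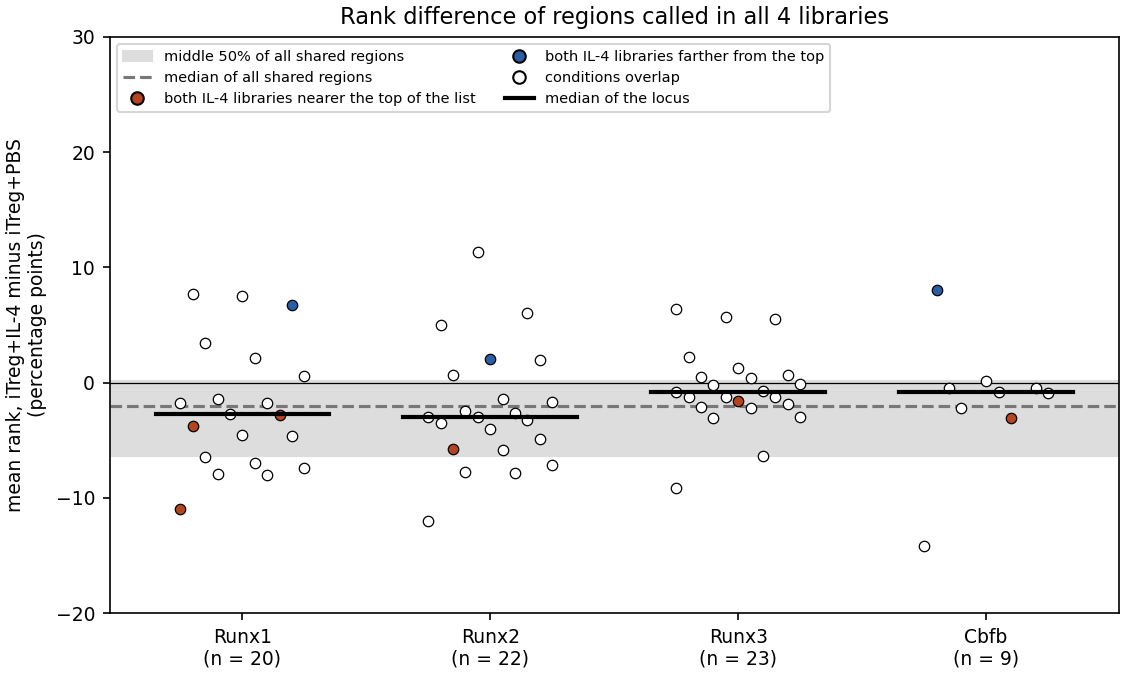
Mean rank in the iTreg+IL-4 libraries minus that in the iTreg+PBS libraries (percentage points, below 0 means nearer the top of the list with IL-4) for the 74 member regions called in all 4 libraries, 1 point each, by locus. The grey band and dashed line are the middle 50% and the median (-2.05) of all 47767 shared regions, and filled points are the 9 regions whose conditions did not overlap.

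Of the 6 regions nearer the top with IL-4, Runx1 P1 and Runx2 P2 have been given above. The largest difference of the 6 was at a Runx1 intronic region 15.1 kb downstream of P1 (chr16:92810552-92811456), which ranked at 51.7% and 47.9% without IL-4 and at 42.1% and 35.5% with IL-4. A further Runx1 intronic region 82.2 kb downstream (chr16:92743596-92744286) ranked at 17.6% and 21.4% without IL-4 and at 15.5% and 16.0% with it. At Runx3, a region 99.2 kb downstream of P1 in an intron of the neighbour Clic4 (chr4:135219574-135220102) ranked at 37.9% and 37.1% without IL-4 and at 36.2% and 35.6% with it. At Cbfb, the start site of the uncharacterised gene D230025D16Rik (chr8:105224701-105225610) ranked at 9.51% and 10.3% without IL-4 and at 6.69% and 7.02% with it.

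The 3 regions farther from the top were the Supt3 start site inside Runx2, given above, a Runx1 region and a Cbfb region. The intergenic region downstream of Runx1 (chr16:92565786-92566316), 260.1 kb from P1, ranked at 48.9% and 54.3% without IL-4 and at 59.5% and 57.1% with it. The intronic region of Cbfb (chr8:105212166-105212789) ranked at 81.1% and 81.7% without IL-4 and at 82.6% and 96.2% with it. Only 3 of the 9 regions kept their side by height, among shared regions and in lists of equal length alike, namely the Runx1 downstream region, the Supt3 start site and the D230025D16Rik start site.

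The total length of peaks did not separate the conditions at any member. Over the 4 loci the iTreg+PBS libraries had 65797 and 43889 bases and the iTreg+IL-4 libraries 66535 and 55495. The means were 54843 ± 15491 bases (SD, n = 2) and 61015 ± 7806 bases (SD, n = 2), a difference of 6172 bases (exact two-sided permutation test, p = 0.667, where 0.333 is the smallest p that 2 libraries against 2 allow). iTreg+PBS replicate 2, which had the shortest list, was the lowest at every locus. Without it the difference was -4782 bases and thus reversed, without iTreg+PBS replicate 1 it was 17126 bases, without iTreg+IL-4 replicate 1 it was 652 bases and without iTreg+IL-4 replicate 2 it was 11692 bases. In lists cut to equal length it was 3549.5 bases, and in the upper 50% of each list it was 1698 bases. The whole lists held 40634293 and 29298863 bases inside peaks without IL-4 and 42061641 and 35974918 with it. The 4 libraries stood in the same order there as over the 4 loci together.

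By locus, the iTreg+PBS libraries had 18777 and 13637 bases at Runx1 and the iTreg+IL-4 libraries 20149 and 17165. The lengths were 22056, 11894, 20126 and 15302 bases in the same order at Runx2. At Runx3 they were 15839, 11168, 16877 and 14443 bases, and at Cbfb 9125, 7190, 9383 and 8585 bases. The conditions overlapped at all 4 loci. In exact two-sided permutation tests p was 0.667 at Runx1, Runx3 and Cbfb (0.889 adjusted over the 4 loci by the Benjamini-Hochberg method) and 1 at Runx2.

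**Figure D4:**
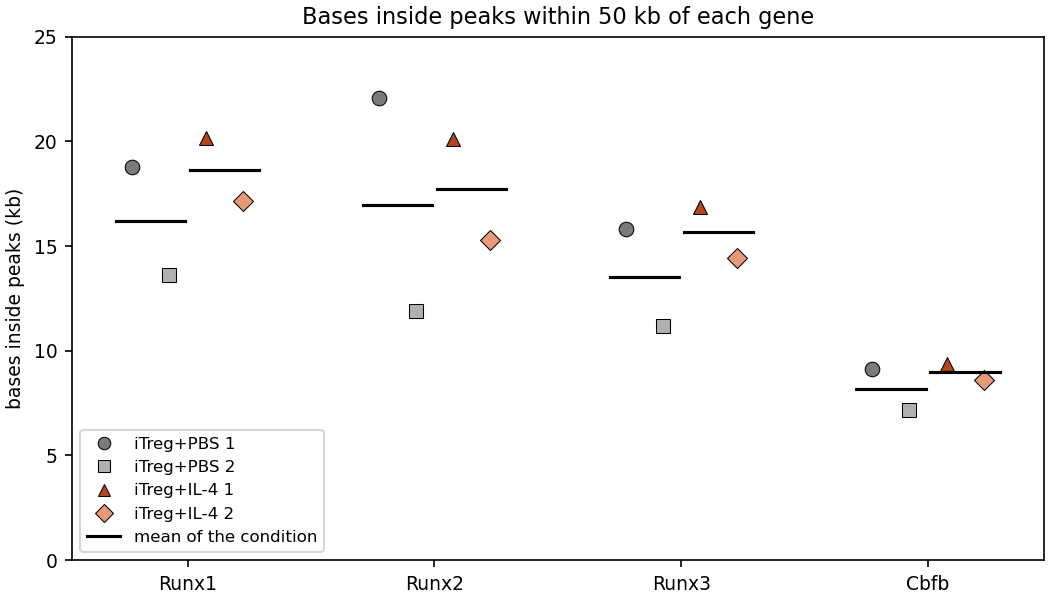
Bases inside peaks (kb) within each gene and 50 kb on either side, 1 point for each library, with the mean of each condition as a line. iTreg+PBS replicate 2 was the lowest point at each of the 4 loci, and the conditions overlapped at each.

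Regions called in a single library made up 29 of the 139 (20.9%), beside 21.6% of all regions. Of these, 15 were found only in iTreg+PBS replicate 1, and 11 of the 15 lay at Runx2. In the whole series iTreg+PBS replicate 1 held 33.8% of such regions. Cbfb had none. A further 13 regions were called in 3 libraries, of which 12 lacked iTreg+PBS replicate 2 and 1 lacked iTreg+IL-4 replicate 2. These 13 were 9.35% of the member regions, beside 13.7% of all regions, and 72.9% of all regions called in 3 libraries lacked iTreg+PBS replicate 2.

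The motif that RUNX factors bind, TGTGGTT, was searched on both strands, in a window of 200 bases at the middle of every region. It was found in 13 of the 74 shared member regions (17.6%), beside 8.33% of the 47710 shared regions on the assembled chromosomes. Of the 13, 6 lay at Runx3, 3 at Runx1, 3 at Runx2 and 1 at Cbfb. With 100 bases searched the shares were 8.11% and 4.31%, with the whole region 31.1% and 21.2%, and for the core TGTGGT, which every TGTGGTT contains, 31.1% and 19.7%. Regions near one gene are not independent of each other, so no test was made of these shares.

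At Runx3 the motif stood in the P1 region and in the region 11.8 kb upstream of it, which were among the 3 best-ranked of that locus, and at Runx1 in the region 4.05 kb downstream of P1, the second best. The best-ranked motif region of each Runx gene is shown, as 200 bases around the centre on the forward strand of GRCm38.p6 with the RUNX core in capitals. They lie at chr16:92822002-92822201 (Runx1 intron), chr17:44702616-44702815 (Runx2 intron) and chr4:135120233-135120432 (Runx3 P1, upstream of the pair of cores shown above). The Cbfb intronic region at chr8:105212378-105212577 is added because it held the most cores of the 139 regions.
Runx1 intron: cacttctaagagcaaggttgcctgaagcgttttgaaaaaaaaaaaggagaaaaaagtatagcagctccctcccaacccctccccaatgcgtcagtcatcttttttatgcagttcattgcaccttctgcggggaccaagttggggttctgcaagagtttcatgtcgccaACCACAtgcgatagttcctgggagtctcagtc
Runx2 intron: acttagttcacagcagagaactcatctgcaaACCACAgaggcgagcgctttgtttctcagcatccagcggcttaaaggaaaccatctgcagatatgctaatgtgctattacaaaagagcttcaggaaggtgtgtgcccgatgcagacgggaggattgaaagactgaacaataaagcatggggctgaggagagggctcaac
Runx3 P1 region: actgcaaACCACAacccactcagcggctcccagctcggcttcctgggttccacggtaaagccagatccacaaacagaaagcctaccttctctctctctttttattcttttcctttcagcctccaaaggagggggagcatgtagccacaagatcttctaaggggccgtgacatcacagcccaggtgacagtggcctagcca
Cbfb intron: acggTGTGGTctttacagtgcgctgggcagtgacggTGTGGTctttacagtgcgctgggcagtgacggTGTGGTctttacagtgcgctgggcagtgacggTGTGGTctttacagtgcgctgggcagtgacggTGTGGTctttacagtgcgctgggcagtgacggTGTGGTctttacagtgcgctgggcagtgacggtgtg

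The Runx1, Runx2 and Runx3 sequences each hold 1 core, which stands within the full motif. The Cbfb sequence holds 6 cores, 1 in each copy of a short unit that recurs in tandem, and none of the 6 extends to the full motif. That region was near the bottom of every list, as given above.

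Other motifs were searched in the same 74 regions. AP-1, which binds TGANTCA in activated T cells, matched 12 regions (16.2%, beside 10.7% of all shared regions), of which 5 lay at Runx1 and 5 at Runx2. The STAT5 type, TTCNNNGAA, matched 5 (6.76%, beside 8.29%), the STAT6 type 6 (8.11%, beside 5.27%) and GATA 4 (5.41%, beside 7.14%). CCGGAAG, a motif of the ETS factors that partner RUNX proteins, matched 0 of the 74, beside 4.42%, which says only that these letters were not in the windows.

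The genes that work with RUNX proteins were examined in the same way from lists chosen with earlier results of these data known. Of 24 partners and co-regulators, 22 had a promoter peak in all 4 libraries and 2 had none, beside 58.8% and 34.8% of all coding genes. The 2 were the corepressor genes Tle2 and Runx1t1, and Runx1t1, the fusion partner of RUNX1 in leukaemia, had no region at all within 50 kb. Their loci held 441 regions, of which 10 (2.27%) were called only with IL-4 and 2 only without it, beside 2.60% and 0.699% of all regions.

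Of 24 T cell genes known to be bound or controlled by RUNX factors, 19 had a promoter peak in all 4 libraries, beside the same 58.8% of all coding genes. Of their 438 regions, 12 (2.74%) were called only with IL-4 and 0 only without it, beside 2.60% and 0.699% of all regions. Among the others, Itgae, the αE integrin, had none, Il2 had a peak in 1 library, Cd8a in 2 and Il4 in 3. Foxp3 and Gata3 are in both lists. Foxp3, which RUNX1 and CBFβ sustain in Treg cells, had a promoter peak at ranks of 9.37% and 12.7% without IL-4 and 13.5% and 11.9% with it, over all its annotated start sites, and Gata3 had one at 7.74%, 9.56%, 9.22% and 12.0% in the same order. Cd4, which RUNX factors silence outside the CD4+ lineage, had a weak promoter peak, at 66.3% and 88.0% without IL-4 and 65.5% and 72.3% with it. The conditions overlapped at these 3 genes, which were picked out after their values were seen.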

How the data were processed

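ATAC-seq was performed on mouse CD4+ T cells, 50000 to a reaction, with 2 libraries from each of the conditions iTreg+PBS and iTreg+IL-4. The authors sequenced on the BGISEQ-500, and the submitters' processing notes name Bowtie2 2.2.5, MACS2 2.1.2 and bedtools 2.16.2. Peaks were called in each library on mm10. Tn5 offset correction and the removal of duplicate and mitochondrial reads are not given in the sources used here, and their effect on positions and ranks was not tested. Each deposited peak carries a value read here as the −log10 q-value and a pileup signal, its height, which the authors did not scale between libraries. The lists have no column names, and this reading rests on the values, whose lowest −log10 q of 1.31 corresponds to q = 0.05. Positions count from 1.

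Peaks sharing at least 1 base across the lists were merged with Python 3.11.15, numpy 2.4.6 and pandas 2.3.3, a step tested on simulated lists. Gene records and start sites came from GENCODE M21, and sequence from RefSeq GRCm38.p6 through pysam 0.24.0 and samtools 1.23.1. A promoter was 1 kb on either side of the start sites of coding transcripts of one kind. P1 and P2 were assigned by the first residues of the annotated protein. A region's rank is that of its best peak. The best ranked regions of a locus were ordered by their weakest library. The regions named were the promoters, those called in both libraries of 1 condition only, the 3 best-ranked of each locus and those whose conditions did not overlap in rank. The genes nearest in rank were found by Euclidean distance over the 4 libraries. Bases inside peaks were compared by an exact two-sided permutation test. The members, lists, motifs and tests were chosen with earlier results of these data known. Some items, among them the sequence of 1 promoter, are not reported here. Alternatives changed the list length, overlap, flank, window, ranking measure and libraries.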

Additional observations from a re-analysis of the deposited data

How the results depend on the processing

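Of 67 alternative values, 39 stayed within 1.5 times the reported count or kept their direction, 27 moved further and 1 reversed. The 6 open promoters stayed 6 in every setting. With the upper 50% of each list, shared member regions fell to 43 and regions called only with IL-4 to 0. Beside these, 60.5% and 2.14% of all regions were so called, against 61.4% and 0% of the members'. In lists of equal length 2 regions were called only with IL-4 (1.94%, beside 1.92% of all regions), and ranks split 3 against 13. Neither of the 2 was among the 5 of the full lists, whose peaks in iTreg+IL-4 replicate 1 were too weak to pass that cut. Ranked among shared regions, the split was 3 against 14. Without a flank, 48 of 86 regions were shared (55.8%, beside 51.0% of all regions) and 1 was called only with IL-4 (1.16%, beside 2.60%). A reciprocal overlap of 50% gave 2 regions called only without IL-4 (1.44%, beside 0.859% of all regions) and 6 only with it (4.32%, beside 3.64%). The RUNX motif was found in 6 regions with 100 bases searched (8.11%, beside 4.31% of all shared regions), 23 over whole regions (31.1%, beside 21.2%) and 23 as the core (31.1%, beside 19.7%).

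Leaving out 1 library gave 74 to 86 shared regions (54.7% to 62.3%, beside 55.4% to 62.4% of all regions), 5 to 17 called only with IL-4 (3.62% to 13.7%, beside 3.41% to 13.6%) and 0 to 15 only without it (up to 10.9%, beside up to 8.19%). It gave 8 to 55 nearer the top with IL-4 (10.8% to 74.3%, beside 24.3% to 70.8% of all shared regions) and 5 to 41 farther from it (6.67% to 47.7%, beside 9.93% to 36.0%), and 6 promoters throughout. With fewer libraries to satisfy, none of these counts could fall below that of the full set. The difference in bases ran from -4782 (reversed, without iTreg+PBS replicate 2) to 17126 bases. It was 1698 bases in the upper 50% of each list, 3549.5 in lists of equal length and 3120.5 without a flank, against 6172 in the full lists, and 7084 with a flank of 100 kb.

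The replicate numbers were shared by the conditions, and same-numbered libraries deviated together with r = 0.45 over all shared regions and 0.67 over the 74 of the members (Pearson's r across regions, which are not independent), but with so few numbers this cannot establish a pairing. With the replicate block, 25 regions ranked nearer the top and 10 farther, where 43.4% and 12.3% of all shared regions did. The difference in bases was 6172 (exact two-sided sign-flip test, p = 0.5, the smallest that 2 pairs allow). Depth is unknown and the lists hold no counts, so a lost or gained weak peak and a change in depth cannot be told apart.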
